A study of Mus musculus with 15 samples.

Results

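The genes described here are 9 laminin chains, Lama1, Lama2, Lama3, Lama4, Lama5, Lamb1, Lamb2, Lamb3 and Lamc1, chosen by symbol from the 33340 genes of a count table of whole mouse lung after bleomycin. All 9 were in the table and all 9 passed the filter on low counts, as did 17457 genes in all. The animals were C57BL/6 mice, male and 10 to 12 weeks old by the methods of the study, and bleomycin, which breaks DNA and leaves a scarred lung, was given into the trachea at 5 U/kg under Avertin anaesthesia. Polyadenylated RNA of the lung was sequenced in 4 untreated libraries of day 0, 4 libraries of day 7, 4 of day 14 and 3 of day 21 after the drug. Day 0 replicate 4 is a control by its title, while its treatment label names bleomycin. It was kept at day 0. The study calls its replicates biological, but the labels do not tie each library to an animal, so p-values measure the spread between libraries.

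Laminins are the cross-shaped proteins from which basement membranes, the thin sheets under epithelium and endothelium and around muscle and nerve, are built. Each laminin holds 1 alpha, 1 beta and 1 gamma chain that coil together before secretion. The alpha chain carries the domains that bind integrins and dystroglycan on the cell surface, and the gamma 1 chain, the product of Lamc1, binds nidogen and so joins the laminin sheet to the collagen IV network. In the adult lung, Lama5 with Lamb1 or Lamb2 and Lamc1 gives the laminin under the alveolar wall, Lama4 gives that of blood vessels, Lama2 that of muscle and of some mesenchymal cells, and Lama3 with Lamb3 the laminin that anchors epithelium through hemidesmosomes. Lama1 is best known from the embryo and from few adult tissues.

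The stretches just before RefSeq starts of 4 chains are shown because these chains parted after bleomycin: Lama5 and Lamb3 rose, Lamb1 passed the test at day 21 only, and Lamb2, the close relative of Lamb1, did not pass it on any day. The sequences come from RefSeq (GRCm38.p6), cover up to 250 bases before the start, end at the first GENCODE exon met within those bases, and read 5′ to 3′ on the strand of the gene. Capitals mark the GC box, GGGCGG or its complement CCGCCC. Lama5 lies at chr2:180225860-180226109 on the minus strand, Lamb1 at chr12:31265043-31265233, Lamb2 at chr9:108479612-108479735 and Lamb3 at chr1:193301744-193301992, all on the plus strand. The Lamb3 window lies inside the gene as GENCODE draws it, from 193207699, and precedes 1 internal start. RefSeq gives Lamb3 another start, at 193302243, whose window is not shown.
Lama5: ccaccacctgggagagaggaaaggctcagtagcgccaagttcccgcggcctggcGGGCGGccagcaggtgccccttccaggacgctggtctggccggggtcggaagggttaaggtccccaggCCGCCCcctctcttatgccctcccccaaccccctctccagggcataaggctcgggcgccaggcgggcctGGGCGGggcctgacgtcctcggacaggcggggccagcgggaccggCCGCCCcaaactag
Lamb1: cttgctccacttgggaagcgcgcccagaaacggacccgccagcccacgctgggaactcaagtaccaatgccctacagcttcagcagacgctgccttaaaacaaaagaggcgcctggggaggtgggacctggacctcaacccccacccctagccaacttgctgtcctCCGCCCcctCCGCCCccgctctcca
Lamb2: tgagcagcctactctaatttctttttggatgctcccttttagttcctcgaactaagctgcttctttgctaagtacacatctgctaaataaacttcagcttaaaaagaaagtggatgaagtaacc
Lamb3: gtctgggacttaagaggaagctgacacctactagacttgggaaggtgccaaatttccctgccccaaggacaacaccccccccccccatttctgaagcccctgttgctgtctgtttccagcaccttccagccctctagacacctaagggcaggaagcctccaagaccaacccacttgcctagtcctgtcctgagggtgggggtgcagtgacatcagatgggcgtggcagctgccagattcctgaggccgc

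The Lama5 window held 4 GC boxes and the Lamb1 window 2, whereas the windows of Lamb2, Lamb3 and Lama2 held 0. The Lama2 window, like that of Lamb3, lies inside the gene as GENCODE draws it and precedes an internal start. A GC box was present in 32.7% of 32851 promoter windows of the same length. Over the whole 250 bases, GC content was 72.4% for Lama5, 62.0% for Lamb1, 58.8% for the Lamb3 window shown, 47.2% for Lama2 and 43.6% for Lamb2, against a median of 52.4% over all promoters. Neither TGANTCA, the AP-1 motif (6.75% of promoters on either strand), nor CCGGAC or its complement GTCCGG, the SMAD motif that the study used (7.44%), occurred in these windows. Entries were found for 5 of the 9 chains, and Lama1, Lama3, Lama4 and Lamc1 had none.

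Total counts ran from 15652008 to 18020661 per library, and the 9 chains together took 0.120% to 0.222% of them. The libraries fell apart in ways that the day does not give. The share of counts from mitochondrial genes was 2.28% and 2.31% in day 0 replicates 1 and 2, 4.22% and 4.04% in replicates 3 and 4, 2.03% to 2.15% at day 7, 2.1% in day 14 replicate 1, 3.74% to 4.14% in the other day 14 libraries, and 2.66% to 4.01% at day 21. Day 14 replicate 1 had a summed level of 5724 CPM over 5 fibroblast markers, where the rest of day 14 had 1441 to 2010 CPM. Alveolar type 2 markers were high at day 0, as whole lung should show, and their sum over 6 genes went from 25740 to 35698 CPM at day 0 to 4261 to 8975 CPM at day 21. The 7 cardiac muscle markers summed to 795 CPM in day 21 replicate 1, 681 CPM in day 7 replicate 4 and 299 CPM in day 0 replicate 3, and to at most 203 CPM elsewhere. In such bulk tissue, fewer cells of a type and less RNA per cell cannot be told apart.

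The comparison with day 0 asked which laminin chains changed as the lung scarred. Lama1, Lamb3 and Lamc1 were higher at day 7, Lama5 joined them at day 14, and Lama2 and Lamb1 at day 21, while Lama3, Lama4 and Lamb2 did not pass the test on any day and no chain was lower. A gene passed when edgeR's quasi-likelihood test gave a Benjamini-Hochberg adjusted p under 0.05 over all genes and the fold change was over 1.5. At day 7, 3 of the 9 chains were higher, against 8.78% of all genes tested, and 0 were lower, against 7.36%. At day 14, 4 of 9 were higher, against 12% of all genes, and 0 lower, against 11.2%. At day 21, 6 of 9 were higher, against 12.4%, and 0 lower, against 10.1%. The median log2 fold change of the 9 chains was 0.36, 0.37 and 0.85 on the 3 days, and that of all genes tested was 0.01, 0.02 and 0.02. All libraries of the later day lay above all day 0 libraries for 4, 4 and 6 chains, against 17.6%, 16.8% and 19.4% of all genes. At an unadjusted p under 0.05 and by DESeq2, too, 0 chains were lower than at day 0. The 3 comparisons share the day 0 libraries and are not independent of each other. Without day 0 replicate 4, the library whose labels disagree, 3, 4 and 5 chains were higher, and the 1 call lost was Lamb1 at day 21.

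**Figure D1:**
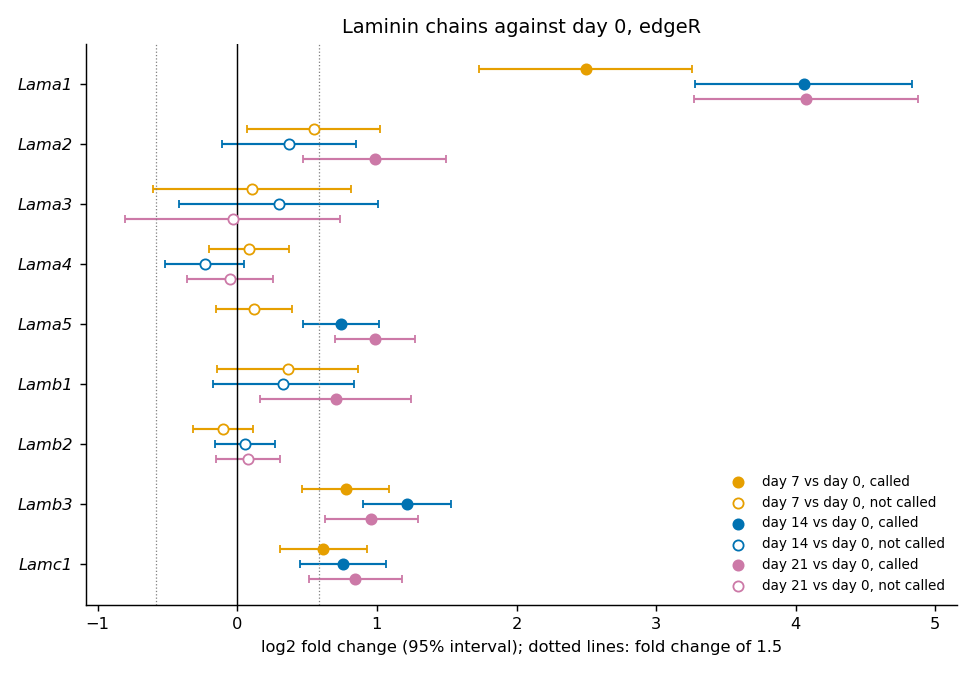
Log2 fold change of each laminin chain at days 7, 14 and 21 against day 0, with 95% intervals from edgeR. Filled points passed the test, open points did not, and dotted lines mark a fold change of 1.5. Lama1 stands far to the right on every day (2.49, 4.06 and 4.07), while the Lamb2 points lie between -0.10 and 0.07.

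Lama1 (ENSMUSG00000032796, chr17:67697259-67822647 on mm10, plus strand) encodes the alpha 1 chain. Its level was 2.85, 2.66, 1.08 and 2.01 CPM in day 0 replicates 1 to 4, from 17 to 44 counts per library, and 14.0, 5.86, 13.6 and 15 CPM at day 7. It reached 22.1, 31.2, 41.5 and 48.6 CPM at day 14 and 29.7, 29.2 and 49.8 CPM at day 21. The 4 groups did not overlap between day 0, day 7 and the later days, and day 7 replicate 2 was the low library of its group. Against day 0 this was a log2 fold change of 2.49 (SE 0.36, adjusted p = 0.00027) at day 7, 4.06 (SE 0.37, adjusted p = 2.76e-06) at day 14 and 4.07 (SE 0.38, adjusted p = 4.84e-06) at day 21, which is 5.63-fold, 16.6-fold and 16.8-fold. These were the largest changes of any chain, from the lowest starting level. Among libraries of like mitochondrial share the log2 values were 2.12 at day 7 (2 against 4 libraries) and 4.68 at day 14 (2 against 3).

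Lama5 (ENSMUSG00000015647, chr2:180176373-180225859, minus strand) encodes the alpha 5 chain of the alveolar basement membrane, and its GC-rich start is printed above. The day 0 libraries held 186, 192, 231 and 241 CPM, and the day 7 libraries 208, 259, 216 and 242 CPM, so these groups overlapped. The day 14 libraries held 360.3, 342, 364 and 355 CPM, and the day 21 libraries 468, 464 and 331 CPM. All 7 of these lay above all 8 earlier libraries. On the log2 scale the change from day 0 was 0.12 (95% interval -0.15 to 0.39, adjusted p = 0.516) at day 7, 0.74 (SE 0.13, adjusted p = 0.000478) at day 14 and 0.99 (SE 0.14, adjusted p = 0.000102) at day 21. Lama5 thus differed from Lama1, Lamb3 and Lamc1 in when it passed the test, and whether its day 7 change differs from theirs was not tested. Among the libraries with over 3.5% mitochondrial counts (2 at day 0, 3 at day 14) the day 14 value was 0.57, under the fold change threshold.

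Lama2 (ENSMUSG00000019899, chr10:26980036-27619758, minus strand) encodes the alpha 2 chain, also called merosin. Its level was 46.2, 62.3, 45.5 and 58.3 CPM at day 0 and 65.9, 84.1, 68.7 and 91.7 CPM at day 7. It was 113, 44.5, 59.2 and 57.9 CPM at day 14 and 117, 105 and 92.6 CPM at day 21. The day 7 and day 21 libraries all lay above day 0, while at day 14 only replicate 1 did. Its log2 fold change was 0.55 (95% interval 0.07 to 1.02, adjusted p = 0.0854) at day 7, 0.37 (SE 0.22, adjusted p = 0.224) at day 14 and 0.98 (SE 0.24, adjusted p = 0.00619) at day 21, and only the last passed. Without day 14 replicate 1, the library with the high fibroblast sum, the day 14 value was -0.0005. Lama2 is a muscle laminin, and day 21 replicate 1 and day 7 replicate 4, the highest of their days for Lama2, were also the highest for cardiac muscle markers, whereas day 0 replicate 3, the highest of day 0 for these markers, had the lowest Lama2 level of its day. The sum of 6 smooth muscle and pericyte markers was 387 to 452 CPM at day 0, 609 to 716 CPM at day 7, 542 to 660 CPM in day 14 replicates 2 to 4, 1118 CPM in day 14 replicate 1, and 1150, 571 and 961 CPM in day 21 replicates 1 to 3, and 2, 2 and 3 of the 6 were higher and 0 lower at days 7, 14 and 21. At day 21 it was lowest in replicate 2, which was not the lowest library for Lama2. The part of either tissue in the Lama2 level was not tested.

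Lama3 (ENSMUSG00000024421, chr18:12333819-12583013, plus strand) encodes the alpha 3 chain of the epithelial anchoring laminin. Its libraries spread widely within a day. The day 0 libraries held 199, 187, 101 and 109 CPM, the day 7 libraries 146, 135, 175 and 186 CPM, the day 14 libraries 133, 124, 189.8 and 285 CPM, and the day 21 libraries 62.6, 209 and 165 CPM. The coefficients of variation were 34.3%, 14.9%, 40.4% and 51.6% on these days. At day 0 the high pair was replicates 1 and 2, which also had the low mitochondrial share. Log2 fold changes were 0.11 (95% interval -0.60 to 0.82), 0.30 (-0.42 to 1.01) and -0.03 (-0.80 to 0.73), with adjusted p of 0.845, 0.530 and 0.954, and intervals this wide do not show a like level. Among libraries of like mitochondrial share the values were -0.28 at day 7 and 0.91 at day 14. Day 21 replicate 1, the lowest library for Lama3, also had the lowest sum of 5 alveolar type 1 markers (1807 CPM, against 3309 to 5264 CPM in the other 14 libraries), whereas day 14 replicate 2 had the highest such sum of its day (5101 CPM) and the lowest Lama3 level. The part of these cells in the Lama3 level was not tested.

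Lama4 (ENSMUSG00000019846, chr10:38965515-39110188, plus strand) encodes the alpha 4 chain of vessels. It was measured at 113, 112, 96.4 and 116 CPM at day 0 and at 113, 105, 120.2 and 124 CPM at day 7. It was 123, 73.7, 89.9 and 84.9 CPM at day 14 and 95.9, 103 and 117 CPM at day 21. Replicates 2, 3 and 4 of day 14 lay below all day 0 libraries and replicate 1 above them, and at the other days the groups overlapped. As a log2 fold change, this was 0.08 (95% interval -0.20 to 0.37, adjusted p = 0.690) at day 7, -0.23 (-0.52 to 0.05, adjusted p = 0.197) at day 14 and -0.05 (-0.36 to 0.25, adjusted p = 0.815) at day 21. Without day 14 replicate 1 the day 14 value was -0.42 with an adjusted p of 0.00999 by edgeR, under the fold change threshold, and over the 19 alternatives run the adjusted p reached from there to 1.0. The 7 endothelial markers summed to 3305 to 4046 CPM at day 0, 2623 to 3218 CPM at day 7, 2220 to 3355 CPM at day 14 and 3074 to 3880 CPM at day 21, and 0, 0 and 1 of them were higher and 2, 3 and 1 lower at days 7, 14 and 21. The part of endothelium in the Lama4 level was not tested.

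**Figure D2:**
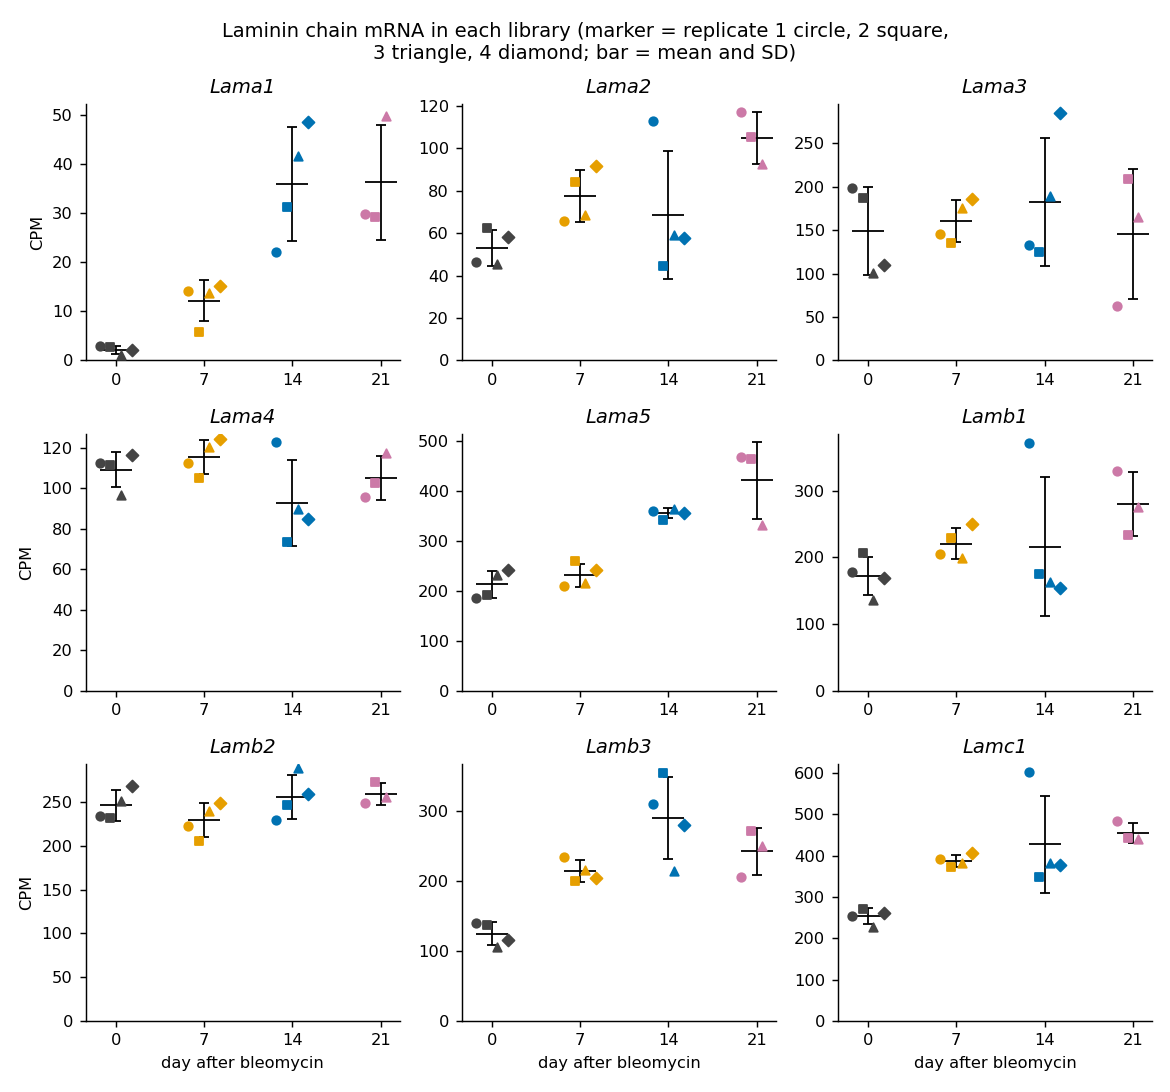
Level of each laminin chain in CPM (vertical axis, from 0) in each of the 15 libraries by day after bleomycin; the marker shape gives the replicate and the bar the mean and SD. Lama1 and Lama5 separate the later from the earlier days, Lamb2 stays between 205 and 289 CPM in all libraries, and day 14 replicate 1 (circle) stands above its group for Lama2, Lamb1 and Lamc1.

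Of the beta chains, Lamb3 (ENSMUSG00000026639, chr1:193207699-193343878, plus strand) was higher than at day 0 on every later day. It encodes beta 3, which pairs with alpha 3 in the epithelial anchoring laminin. Its level was 140.5, 137, 106 and 116 CPM at day 0 and 235, 199.8, 216 and 205 CPM at day 7. It was 309.9, 355, 215 and 281 CPM at day 14 and 206, 272 and 250.2 CPM at day 21. All 11 libraries after bleomycin lay above all 4 day 0 libraries. The log2 fold change was 0.78 (SE 0.15, adjusted p = 0.00187), 1.22 (SE 0.15, adjusted p = 2.64e-05) and 0.96 (SE 0.16, adjusted p = 0.000376) at days 7, 14 and 21. Markers of transitional alveolar epithelium, the Krt8-positive state of injured alveoli, were also higher than at day 0, all 4 at day 7, 3 at day 14 and 2 at day 21. Their sum was 352 to 471 CPM at day 0, 887 to 1329 CPM at day 7, 499 to 1066 CPM at day 14 and 582 to 861 CPM at day 21, and 2 of the 4 were lower at day 21 than at day 7, while Lamb3 did not pass the test between these days. Airway basal markers, another known source of this laminin, summed to 0.635 to 3.39 CPM at day 0 and 1.95 to 9.44 CPM in 10 of the 11 later libraries, with 27.8 CPM in day 21 replicate 1, the lowest of its day for Lamb3, and 2 of the 4 were at 0 counts in all day 0 libraries. The part of either cell type in the Lamb3 level was not tested.

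Lamb1 (ENSMUSG00000002900, chr12:31265234-31329644, plus strand) encodes beta 1, the widespread beta chain. It was 177, 206, 135 and 169 CPM at day 0, 205, 229, 199 and 249.7 CPM at day 7, 372, 175, 164 and 154 CPM at day 14, and 330.2, 234 and 276 CPM at day 21. The 3 day 21 libraries lay above all day 0 libraries, 2 of the 4 day 7 libraries did, and at day 14 only replicate 1 did. The log2 fold change was 0.36 (SE 0.24, adjusted p = 0.281) at day 7, 0.33 (SE 0.24, adjusted p = 0.307) at day 14 and 0.70 (SE 0.25, adjusted p = 0.0472) at day 21. The day 21 value was lost as a call in each of the 7 fits that left out 1 library, at 0.68, 0.77, 0.57 and 0.67 without day 0 replicates 1, 2, 3 and 4, and at 0.53, 0.78 and 0.67 without day 21 replicates 1, 2 and 3. Without day 14 replicate 1 the day 14 value was -0.09.

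Lamb2 (ENSMUSG00000052911, chr9:108479736-108490530, plus strand) encodes beta 2, which takes the place of beta 1 in the basement membranes of mature vessels, kidney and muscle synapses. It held 234, 231, 251 and 269 CPM at day 0, 223, 205, 239.6 and 249 CPM at day 7, 229, 246, 289 and 259.6 CPM at day 14, and 249, 272 and 256 CPM at day 21. The groups overlapped on every day. The log2 fold change was -0.10 (95% interval -0.32 to 0.11), 0.06 (-0.16 to 0.27) and 0.07 (-0.16 to 0.30), with adjusted p of 0.477, 0.703 and 0.648. These intervals all lie within a fold change of 1.5 in either direction.

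Lamc1 (ENSMUSG00000026478, chr1:153218922-153332786, minus strand) encodes gamma 1, which most laminins contain. Its level was 254, 271, 227 and 261 CPM at day 0 and 392, 373, 381 and 406 CPM at day 7. It was 603, 348, 383 and 377 CPM at day 14 and 484, 442 and 441 CPM at day 21, so that all 11 later libraries lay above all 4 day 0 libraries. Relative to day 0, Lamc1 had a log2 fold change of 0.62 (SE 0.15, adjusted p = 0.00727) at day 7, 0.76 (SE 0.15, adjusted p = 0.00115) at day 14 and 0.85 (SE 0.16, adjusted p = 0.000914) at day 21. The first 2 lay near the fold change threshold: the day 7 value was 0.54 without day 0 replicate 3, 0.55 among libraries of like mitochondrial share and 0.41 with that share as a covariate, and the day 14 value was 0.52 without day 14 replicate 1, and none of these passed. The sum of 5 fibroblast markers was 705 to 1031 CPM at day 0, 1869 to 2475 CPM at day 7, 1441 to 5724 CPM at day 14 and 1977 to 3901 CPM at day 21, but only Lum and Col1a1, both matrix genes, were higher, on each day, and Tcf21 was lower at days 14 and 21. The median log2 fold change of the 5 was 0.37, -0.23 and 0.20 at days 7, 14 and 21. The part of fibroblasts in the Lamc1 level was not tested.

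Lamc3, a gamma chain outside the 9, did not pass the test against day 0, with log2 fold changes of -0.19, -0.55 and 0.66, but was higher at day 21 than at day 7 (0.86, SE 0.26, adjusted p = 0.0429). Of the pair of chains above that belong to the epithelial anchoring laminin, Lamb3 passed on all 3 days and Lama3 on none.

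The later days were compared with each other to ask when the chains moved. From day 7 to day 14, Lama1 rose by 1.56 (SE 0.32, adjusted p = 0.0136) and Lama5 by 0.62 (SE 0.13, adjusted p = 0.0144) on the log2 scale, 2 of 9 chains against 2.77% of all genes, and 0 chains were lower, against 3.23% (at an unadjusted p under 0.05, 1 was, Lama4, with -0.32). From day 7 to day 21, the same pair was higher, Lama1 by 1.58 (SE 0.33, adjusted p = 0.00904) and Lama5 by 0.87 (SE 0.14, adjusted p = 0.00243), against 5.2% of all genes, and 0 chains were lower, against 4.34%. All libraries of day 14 lay above all of day 7 for this pair alone (7.9% of all genes did so), and all of day 21 for 4 chains, Lama1, Lama2, Lama5 and Lamc1 (14.6% of all genes). All day 7 libraries had a mitochondrial share under 2.5%, as did only day 14 replicate 1 among the later ones, so that this share and the day can hardly be told apart here. With the share as a covariate the day 14 values were 1.65 for Lama1 and 0.45 for Lama5, and neither passed. Without day 7 replicate 1 the Lama5 value at day 14 was 0.57, under the fold change threshold.

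Between day 14 and day 21, 0 of 9 chains and 0.0% of all genes tested passed with edgeR. At an unadjusted p under 0.05 there were 1714 genes, 1 of them a chain, Lama2, and DESeq2 called 106 genes, 0 of them chains. Without day 14 replicate 1, Lama2 (0.95) and Lamb1 (0.76) were higher at day 21 than at day 14, with adjusted p of 0.0257 and 0.0397, which were the lowest of the 17 alternatives run for each; the highest was 1.0 for both.

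Levels of different chains were compared as CPM per kilobase of union exon length. At day 0, Lamb2 was the most abundant chain (40.5 ± 2.86 CPM per kb, SD, n = 4), followed by Lamc1 (30.6 ± 2.27), and neither overlapped its neighbour in the order. Lamb3 (18.9 ± 2.49), Lama5 (18.7 ± 2.43), Lamb1 (17.3 ± 2.94), Lama3 (13.9 ± 4.75) and Lama4 (9.05 ± 0.724) overlapped from one to the next, and Lama2 (3.25 ± 0.520) and Lama1 (0.222 ± 0.0825) followed. At day 7 Lamc1 led (46.9 ± 1.75 CPM per kb) with no overlap with Lamb2 (37.7 ± 3.16). At day 21 the order was Lamc1 (55.1 ± 2.95, n = 3), Lamb2 (42.6 ± 2.01), Lama5 (37.0 ± 6.81), Lamb3 (36.7 ± 5.07), Lamb1 (28.2 ± 4.87), Lama3 (13.5 ± 6.99), Lama4 (8.72 ± 0.905), Lama2 (6.43 ± 0.745) and Lama1 (3.74 ± 1.22). Lamb2, Lama5, Lamb3 and Lamb1 overlapped from one to the next, and so did Lama3 and Lama4. The order depends on the length used. Lama4 has 12068 bases of union exons but 6046 in its longest transcript, and per kilobase of the latter its day 0 level was 18.1 ± 1.45, next to 18.7 for Lama5, while Lamb1 was at 29.7 and Lamb3 at 25.6. At day 21 the order by longest transcript was Lamc1 (59.7), Lamb3 (49.8), Lamb1 (48.4), Lamb2 (46.0) and Lama5 (37.0).

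Among the alpha chains, Lama5 took a mean of 41.8% ± 8.0 of the summed CPM per kilobase at day 0 and 53.3% ± 9.21 at day 21. These groups overlapped (34.6% to 50.0% and 44.8% to 63.1%). Lama3 went from 30.4% ± 8.68 to 19.2% ± 8.85, with groups that overlapped too (22.7% to 39.1% and 8.96% to 24.9%). Lama4 went from 20.1% ± 0.948 to 12.7% ± 2.08, with all libraries of days 14 (9.60% to 16.1%) and 21 (10.9% to 15%) below those of day 0 (19.4% to 21.5%). Lama1 went from 0.485% ± 0.155 to 5.50% ± 2.14. With the longest transcript as length, the Lama4 share went from 31.9% to 21.1% and the Lama5 share from 33.3% to 44.6%. Among the beta chains, Lamb2 went from 52.9% ± 5.01 at day 0 to 40.8% ± 1.99 at day 7 and 39.6% ± 1.15 at day 21 as a share, while its level stayed within the intervals above. Lamb3 went from 24.6% ± 2.54 at day 0 to 40.6% ± 6.09 at day 14 and 34.1% ± 4.08 at day 21, and Lamb1 held 22.5% ± 2.90 at day 0 and 26.3% ± 5.06 at day 21. These shares were not tested.

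**Figure D3:**
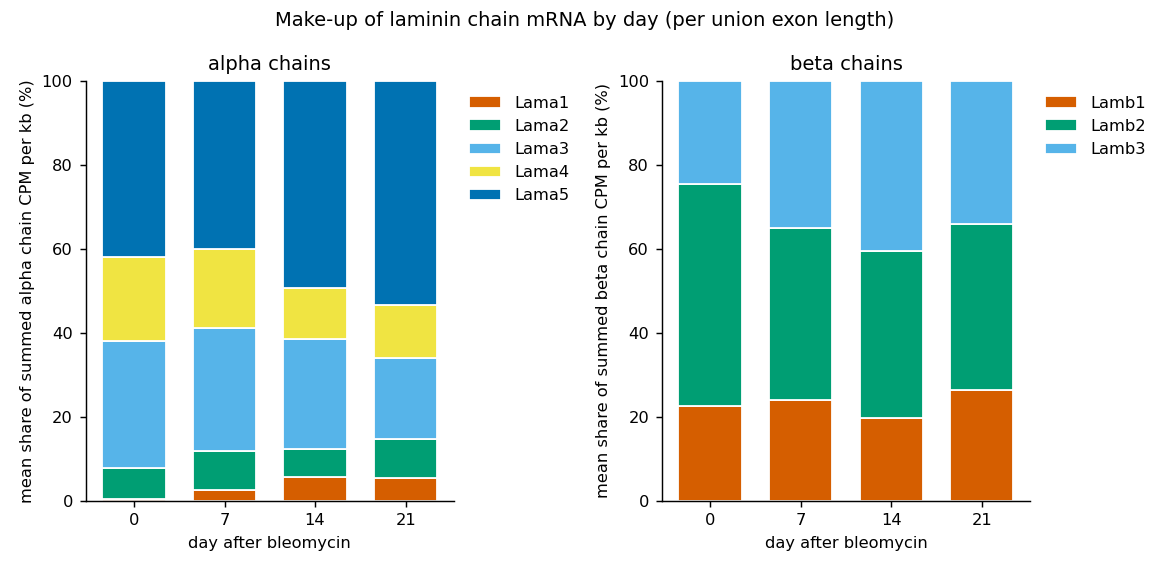
Mean share of each alpha chain (left) and beta chain (right) in the summed CPM per kilobase of union exons of its family, in percent, by day. From day 0 to day 21, Lama5 goes from 41.8% to 53.3%, Lama3 from 30.4% to 19.2% and Lama4 from 20.1% to 12.7% of the alpha chains. Lamb3 goes from 24.6% of the beta chains at day 0 to 40.6% at day 14.

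Ratios of 2 chains within a library do not depend on library scaling, and 15 of them (5 ratios on 3 days) were compared with day 0 by exact two-sided permutation tests. Ratios of 2 single chains are ratios of counts, not divided by length. After Benjamini-Hochberg adjustment 0 of the 15 passed, the smallest adjusted p being 0.107. The smallest p that the exact test allows is 0.0286 for 4 against 4 libraries and 0.0571 for 4 against 3. Day 21 therefore cannot reach 0.05. A ratio at the floor, such as Lama4 over Lama5 at day 14, still had an adjusted p of 0.107 over the 15 tests. That 0 of the 15 passed does not show that the ratios stayed the same. Lama4 over Lama5 was 0.605, 0.582, 0.418 and 0.482 at day 0, 0.341, 0.216, 0.247 and 0.239 at day 14, and 0.205, 0.221 and 0.354 at day 21. All 7 later values lay below all day 0 values. The mean log2 ratio differed from day 0 by -0.04 at day 7 (exact p = 0.771), -1.01 at day 14 (exact p = 0.0286) and -1.03 at day 21 (exact p = 0.0571), the last pair being the smallest p each design allows.

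The sum of Lamb1 and Lamb2 over Lamc1, per kilobase, was 1.83, 1.79, 2.00 and 1.94 at day 0 and between 1.03 and 1.38 in all 11 later libraries. The log2 difference was -0.57, -0.59 and -0.55 at days 7, 14 and 21, with exact p of 0.0286, 0.0286 and 0.0571. Lama3 over Lamb3 was lower than in all day 0 libraries in all 4 day 7 libraries, in 3 of 4 at day 14 and in 3 of 3 at day 21, with log2 differences of -0.62 (exact p = 0.0286), -0.92 (exact p = 0.114) and -1.10 (exact p = 0.0571). Lamb1 over Lamb2 differed by 0.48 (exact p = 0.0571), 0.19 (exact p = 0.80) and 0.63 (exact p = 0.114). Without day 14 replicate 1 its day 14 difference was -0.16. Lama3 over Lama5 differed by 0.04, -0.47 and -1.12 (exact p = 1.0, 0.229 and 0.286), and without day 21 replicate 1 the day 21 difference was -0.51. Without that library the Lama3 over Lamb3 difference at day 21 was -0.69. Among libraries of like mitochondrial share, Lama3 over Lama5 differed by -0.56 at day 7 and 0.26 at day 14.

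**Figure D4:**
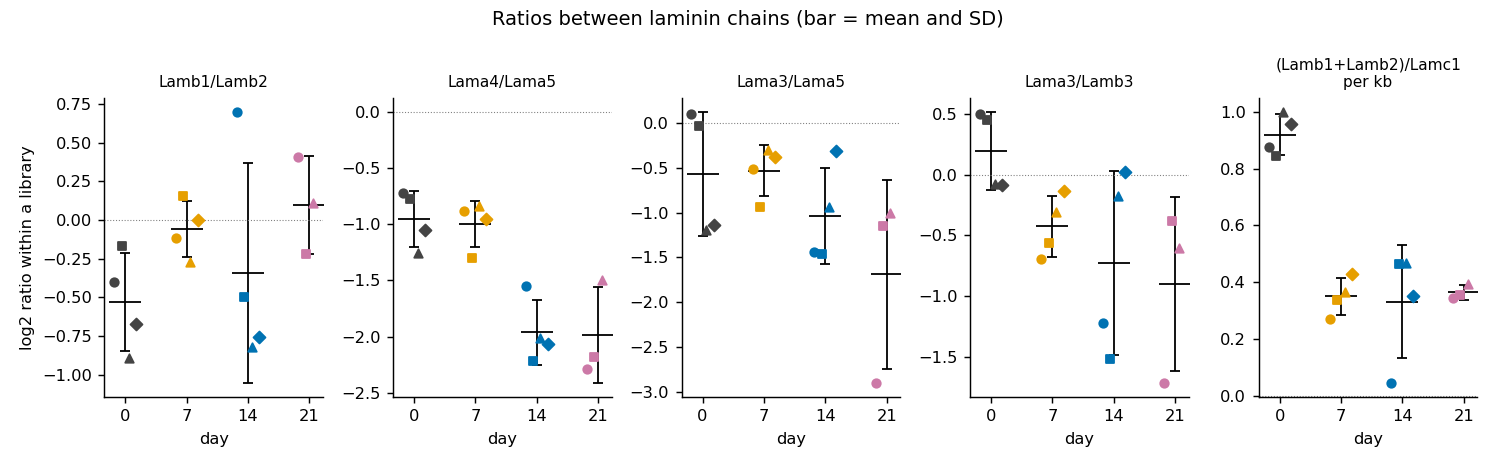
Log2 ratios between laminin chains in each library by day, with mean and SD. The last panel is per kilobase of union exons, and the others are ratios of counts not divided by length. The dotted line marks equal counts, or in the last panel equal counts per kilobase. Lama4 over Lama5 is lower in all 7 libraries of days 14 and 21 than in the 4 of day 0, and (Lamb1+Lamb2) over Lamc1 is lower in all 11 later libraries.

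Laminins act through receptors and partners, and these were counted in the same fit. Of 7 laminin receptors, 3 were higher at day 7, 4 at day 14 and 4 at day 21, and 0 were lower. At day 14 these were Itga7, the integrin alpha 7 chain (1.59 on the log2 scale, SE 0.25, adjusted p = 0.000255), Itga3, the alpha 3 chain of the epithelial laminin receptor (0.99, SE 0.16, adjusted p = 0.000317), Dag1, dystroglycan (0.88, SE 0.19, adjusted p = 0.00301), and Itgb4, the hemidesmosome integrin (0.59, SE 0.19, adjusted p = 0.0299). Of 12 partners in the basement membrane network, 5, 7 and 7 were higher and 0, 1 and 1 lower at days 7, 14 and 21. The largest at day 14 were Col4a1 (1.5, SE 0.16) and Col4a2 (1.32, SE 0.15), which form the common collagen IV, Col18a1 (1.17, SE 0.17) and Hspg2, which encodes perlecan (1.10, SE 0.19). Col4a6 was lower (-0.78 at day 14).

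Of 4 hemidesmosome partners, Plec, which encodes plectin, was higher on all 3 days (0.83 at day 14, SE 0.17), and Col17a1, the transmembrane collagen that binds the alpha 3 laminin, was lower at day 14 (-2.68, SE 0.55, adjusted p = 0.00180) from 4.53 CPM at day 0. The background shares of all genes given above hold for these lists and for the marker lists.

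Over the 15 libraries likeness between chains is given as Pearson r of log2 CPM with no test, since libraries share their days. Lama2, Lamb1 and Lamc1 had r of 0.80 to 0.90 among themselves, and Lama1 and Lamb3 had r of 0.89. Lamc1 was as like Lama1 (0.81) and Lamb3 (0.80) as it was like Lama2 (0.82) and Lamb1 (0.80). Lama3 had r between -0.29 and 0.23 with every other chain, and Lamb2 at most 0.48. Outside the chains, and among 11816 genes, the 2 most like Lamc1 were Fbn1, fibrillin 1 (r = 0.977), and Col1a2, a chain of collagen I (r = 0.974), and those most like Lamb1 were Gpr161 (0.938) and Ltbp1 (0.932), which binds latent TGF beta. For Lama1 they were Lipa, lysosomal acid lipase (0.956), and Sorcs2 (0.953), for Lama2 Zfp516 (0.933) and Cpd (0.925), and for Lama5 Plekhm2 (0.965) and Myo7a (0.959). For Lama3 they were Rabgap1l (0.964) and Sema3e (0.918), for Lama4 Hnrnpul1 (0.929) and Fat3 (0.911), for Lamb2 Atat1 (0.926) and Ace3 (0.895), and for Lamb3 Fuca2 (0.981).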

How the data were processed

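The authors made polyadenylated libraries of whole lung with a NEBNext Ultra kit, sequenced paired ends, trimmed them with TrimGalore, aligned them to mm10 (GRCm38) with HISAT2 2.1.0, left out multi-mapped reads, and deposited raw counts per Ensembl gene from HTSeq 0.6.0 without normalization. The annotation release and strand setting are not given in the sources used here. Antisense genes cover 3.86% of the exon bases of Lama2 and 1.83% of those of Lama3, and their reads cannot be told apart without that setting. Groups and replicate numbers come from the sample titles, while the series text gives a smaller number of replicates.

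Symbols, coordinates and exon lengths came from GENCODE M21 (33267 of 33340 genes matched). The deposited counts were tested with edgeR 4.0.16 in R 4.3.3 (filterByExpr, TMM, glmQLFit, glmQLFTest, all 15 libraries in 1 fit), after a test of the scripts on simulated data. The thresholds, an adjusted p of 0.05 and a 1.5-fold change, were those named in the methods of the study. CPM are scaled to TMM-adjusted library size, and every chain had at least 17 counts in every library. Correlations used log2 CPM with a prior count of 2.

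The chains and the lists of receptors, partners and markers were chosen with earlier results of these data known. Other genes named were Lamc3, up to 4 genes per list with the largest change among those that passed at day 14, and the 2 genes of at least 5 CPM most correlated with each chain. Some items these rules name are not reported here. Alternatives were DESeq2 1.42.0, RLE factors, total counts, no filter on low counts, genes of mean 1 CPM or more, the 2 groups alone, a replicate block, the mitochondrial share as a term, libraries of like share (under 2.5% for day 7, over 3.5% for day 14), limma voom, no fold change threshold, glmTreat, and each library left out in turn. Ratios were also computed with 0.5 added to counts and with the longest transcript as length.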

Additional observations from a re-analysis of the deposited data

Results flagged for a closer look

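In 3 of 42 groups of 4 libraries examined (levels of the chains and ratios between them), 1 library stood apart from the rest by Dixon's criterion, which chance alone gives in about 5% of groups. Lama1 reached only 5.86 CPM in day 7 replicate 2, where the remaining day 7 libraries held 13.6 to 15 CPM. Lamb1 reached 372.3 CPM in day 14 replicate 1 (153.6 to 174.6 CPM in the rest of its group), and Lamc1 603.1 CPM in the same library (348.3 to 383.4 CPM in the rest). That library also had the highest sum of fibroblast markers (5724 CPM), a sum of smooth muscle and pericyte markers of 1118 CPM (542 to 660 CPM in the rest of day 14) and a sum of alveolar type 2 markers of 6661 CPM (15647 to 19545 CPM in the rest). The part of these cells in the levels was not tested.

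The change from day 0 differed between later days for 2 chains, by the direct test of the later days against each other. The Lama1 log2 fold change was larger by 1.56 at day 14 than at day 7 (95% interval 0.89 to 2.23) and by 1.58 at day 21 (0.87 to 2.29). That of Lama5 was larger by 0.62 at day 14 (0.35 to 0.89) and by 0.87 at day 21 (0.58 to 1.15).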

How the results depend on the processing

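Between 17 and 19 alternatives were run for each comparison. Followed under them were all 9 chains against day 0, Lama1 and Lama5 against day 7, and Lama2 and Lamb1 at day 21 against day 14. Of these 599 log2 fold changes, 552 kept their direction and their call (adjusted p and fold change jointly), 29 of called values no longer passed, 2 newly passed, and 16 changed sign, all of values that had not passed. With glmTreat, which tests against a fold change of 1.5 itself, the number of chains higher was 1, 2 and 3 at days 7, 14 and 21 against day 0 and 0 at days 14 and 21 against day 7. It was 0 for day 14 against day 7 once mitochondrial share entered the fit as a covariate. Leaving out 1 library gave 2 to 3, 3 to 4 and, each time, 5 chains higher at days 7, 14 and 21 against day 0, 1 to 2 at day 14 against day 7 and 0 to 2 at day 21 against day 14. The background over all genes moved too. Against day 0, 1533, 2089 and 2167 genes were higher at days 7, 14 and 21, and with glmTreat 525, 1027 and 1051 were. With the mitochondrial share in the fit 867 were higher at day 7. At day 14 against day 7, 484 were higher, but 813 with DESeq2, 112 with that share in the fit, 6 with glmTreat and as few as 162 with 1 library left out. At day 21 against day 7, 907 were higher, but 483 with that share, 89 with glmTreat and as few as 385 with 1 library left out.

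Some values changed sign. With the mitochondrial share as covariate these were, at day 7, Lama3 -0.17, Lama4 -0.12, Lamb1 -0.0197 and Lamb2 0.0044, and at day 21 Lama3 0.0224. In libraries of like share Lama3 was -0.28 at day 7. Leaving out 1 library, Lama3 was -0.0627 to 0.25 at day 7, -0.00012 to 0.44 at day 14 and -0.43 to 0.29 at day 21, with 0.10 and 0.0662 without day 0 replicates 1 and 2, and -0.0627 and -0.0352 at day 7 without day 0 replicates 3 and 4. Lama2 was -0.000501 to 0.51, Lamb1 -0.0895 to 0.46 and Lamb2 -0.00773 to 0.084 at day 14, and Lamb2 was -0.00363 to 0.0882 at day 21. For ratios, Lamb1 over Lamb2 at day 14 was -0.16 to 0.35, Lama4 over Lama5 at day 7 was -0.14 to 0.0581, and Lama3 over Lama5 at day 7 was -0.17 to 0.26. In libraries of like share Lama3 over Lama5 was -0.56 at day 7 and 0.26 at day 14. The cause was not tested.

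Among chains that passed, Lamb1 at day 21 no longer did with RLE factors (0.68), with a mean of at least 1 CPM (0.68) and with each library left out, and over its 17 alternatives the adjusted p ran from 0.00745 to 0.549. Lamc1 at day 7 did not with a mean of at least 1 CPM (0.58), under the fold change threshold. Lama1 at every day against day 0 passed under all alternatives run.

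Whether the replicate numbers pair the libraries was not tested. Deviations from group means of same-numbered libraries had r of -0.24 to 0.40 over 21 pairs, with a median of 0.04. Those of other pairs had -0.33 to 0.26 over 63, with a median of -0.03. The highest r was between replicate 1 of day 14 and of day 21. With replicate number as a block, 3, 4 and 6 chains were higher at days 7, 14 and 21 against day 0 and 2 at both days against day 7, and no call changed.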
